A study of Mus musculus with 3 samples.

Results

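The insulin-like growth factor (IGF) axis was followed here through 8 genes, the ligand gene Igf1, the receptor genes Igf1r and Igf2r, and the binding protein genes Igfbp2, Igfbp3, Igfbp4, Igfbp5 and Igfbp7. They are the genes of a chosen list of this axis whose probes carried a single gene symbol and had a value on all 3 arrays. They make up 8 of 14047 such genes and 10 of 19660 gene probes. Igf1r had 3 probes and each of the others had 1.

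IGF1 and IGF2 are secreted growth factors of embryo and adult that act mainly through IGF1R, a tyrosine kinase receptor that feeds the PI3 kinase-AKT and MAP kinase pathways. IGF2R, which is also the cation-independent mannose 6-phosphate receptor, takes up IGF2 and sends it to the lysosome. The IGF binding proteins hold the ligands in blood and matrix, limit or prolong their access to the receptor, and are cut by proteases that release the ligand. In the developing kidney the mesenchyme and the ureteric bud, an epithelial outgrowth that enters it, signal to each other, and IGFs are among the growth factors known to act there.

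The RNA came from CD1 mouse embryos of both sexes, pooled, and was microdissected, amplified and labelled with amino allyl dyes. Each of the 3 arrays (Compugen mouse oligonucleotides) set 2 tissues against each other, channel 1 holding metanephric mesenchyme at 10.5 days post coitum (dpc) and channel 2 holding metanephroi at 11.5 dpc. The comparison asks which transcripts differ between these 2 tissues. They differ in both the part dissected and the age, which cannot be told apart here. Arrays 1 and 2 had the dye order red/green and array 3 had green/red, and no common reference was used. The labels give no source of separate dissections for the arrays, and p-values therefore measure a spread that may be technical.

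Each value below is a log2 ratio of the channels of 1 array, and each mean is given with its SD over 3 arrays. The sources used here do not say which tissue is the numerator. A negative ratio therefore means more RNA in one tissue and a positive ratio more RNA in the other, without saying which is which. In RNA of a whole tissue, fewer cells of a type and less RNA per cell cannot be told apart. The whole table gave 0 genes past an adjusted p of 0.05 by limma (0.0% of 14047), with 2750 genes (19.6%) at an unadjusted p under 0.05. Over probes, which are not independent replicates, the Pearson correlation of arrays 1 and 2 was 0.324, and array 3 had 0.0517 with array 1 and 0.0148 with array 2. The Spearman correlations were 0.466, 0.211 and 0.171. Array 3 was used as deposited because its correlations with both other arrays were above 0. For every member, and for the genes named from the pathway lists with an unadjusted p under 0.05, the mean with the sign of array 3 turned is given as well.

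The data placed the ligand gene Igf1 and the binding protein genes Igfbp3 and Igfbp4 on the negative side on every array, with mean log2 ratios of -0.85 ± 0.36, -0.84 ± 0.26 and -1.08 ± 0.42 (SD, n = 3). Of the 3 Igf1r probes, 2 lay on the same side. Igf2r at 0.25 ± 0.19 and Igfbp7 at 0.35 ± 0.20 were positive on every array, and Igfbp2 and Igfbp5 had arrays on both sides of 0. By limma, adjusted over the whole table, 0 of the 8 genes passed. At an unadjusted p under 0.05 there were 3 of 8 members, against 19.6% of all genes. All 3 were negative, the side that held 9.69% of all genes at this threshold. Of the members 5 of 8 had the same sign on all arrays, against 45.4% of all genes. On the negative side alone these were 3 of 8, against 22.5% of all genes. Among the 8 other measured genes of the axis, 0 had an unadjusted p under 0.05 and 0 had the same sign on all arrays. The members were chosen with earlier results of these data known.

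**Figure D1:**
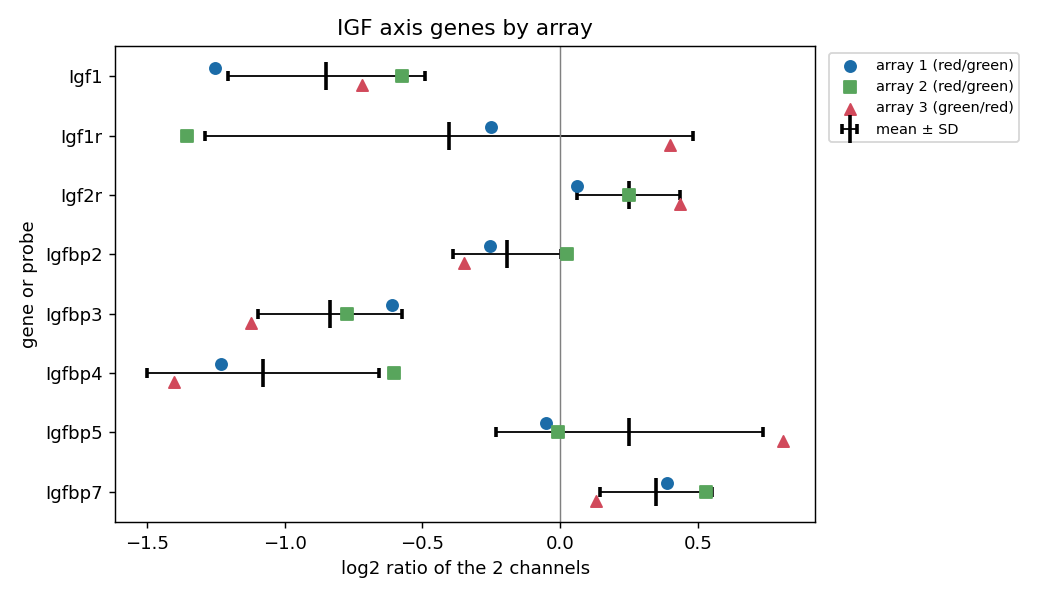
Log2 ratio of each IGF axis gene (x axis) on each of the 3 arrays (points by array, with dye order) with the mean and SD over arrays (black). Igf1, Igfbp3 and Igfbp4 lie left of 0 on all arrays, Igf2r and Igfbp7 lie right of 0 on all arrays, and Igf1r spans from -1.36 to 0.40.

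Igf1 encodes the ligand that binds IGF1R with the highest affinity. Its log2 ratio was -1.25 on array 1, -0.58 on array 2 and -0.72 on array 3. All arrays lay on the same side, with array 1 farthest from 0. The mean of -0.85 corresponds to a 1.80-fold difference between the tissues, and 6.3% of all genes had a lower mean. By limma the SE was 0.20, the unadjusted p was 0.0145 and the adjusted p was 0.176. A dye term in the fit left the mean at -0.82, while turning array 3 brought it to -0.37, with 13.8% of all genes lower.

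Igf1r encodes the signalling receptor, and its probes did not give the same picture. The first probe of the set's main series had log2 ratios of -0.66, -0.50 and -0.76 on arrays 1, 2 and 3, a mean of -0.64 ± 0.13. The other probe of that series had -0.79, -0.38 and -1.05, a mean of -0.74 ± 0.34. Every one of these 6 values was negative, and both probes had their smallest size on array 2. The probe of the set's EXT series had 0.70, -3.18 and 3.00, so that its arrays spanned both signs and its SD was 3.12. At probe level the unadjusted p by limma was 0.0150 and 0.0238 for the main series probes and 0.905 for the EXT probe, with adjusted p of 0.223, 0.234 and 0.957. Of all probes 17.5% had an unadjusted p under 0.05.

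The average of all 3 Igf1r probes was -0.25 on array 1, -1.36 on array 2 and 0.40 on array 3. Its mean of -0.40 ± 0.89 reached an adjusted p of 0.609 by limma. With array 3 turned the mean was -0.67. Without the EXT probe, a choice made after its values were seen, the mean was -0.69 ± 0.23 with an adjusted p of 0.177, where the alternatives for this gene ranged from 0.172 to 0.955. The value for the receptor gene thus depended on 1 of its probes, and none of these versions passed the threshold.

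**Figure D2:**
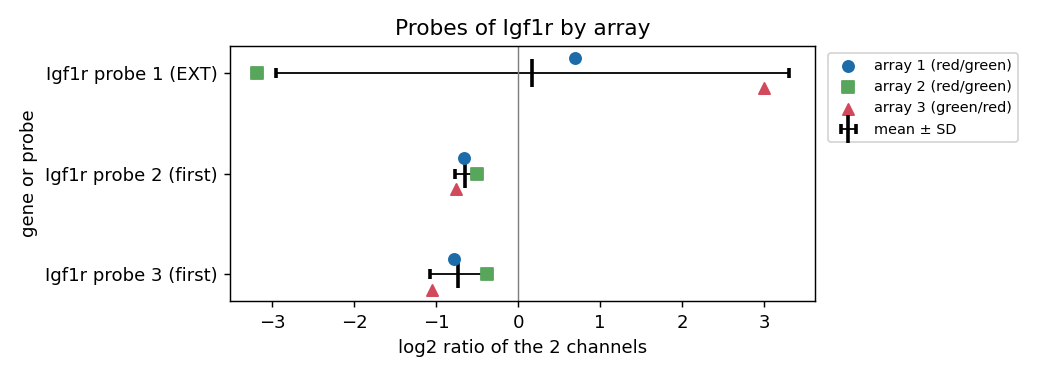
Log2 ratio (x axis) of each of the 3 Igf1r probes on each array, with mean and SD in black. The main series probes (first) sit between -1.05 and -0.38, and the EXT probe runs from -3.18 to 3.00.

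Igf2r encodes the scavenger receptor of IGF2 and is an imprinted gene. It had log2 ratios of 0.06 on array 1, 0.25 on array 2 and 0.43 on array 3. The arrays were all positive, and array 1 was close to 0. The mean of 0.25 ± 0.19 was a 1.19-fold difference, with an unadjusted p of 0.185 and an adjusted p of 0.443 by limma. With array 3 turned the mean was -0.04.

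Igfbp3 encodes the main carrier of IGFs in adult serum, which is also made by many embryonic tissues. Its log2 ratios were -0.61, -0.77 and -1.12 on arrays 1, 2 and 3. None of the arrays came near 0, and array 3, with the opposite dye order, was the farthest. The mean of -0.84 was a 1.78-fold difference, with an unadjusted p of 0.00928 and an adjusted p of 0.165 by limma.

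Igfbp4 encodes a binding protein that is cut by the protease pappalysin. It had -1.23 on array 1, -0.60 on array 2 and -1.40 on array 3. The mean of -1.08 was a 2.11-fold difference, and 3.7% of all genes had a lower mean, against 29.1% with array 3 turned. By limma its unadjusted p was 0.00910 and its adjusted p was 0.165. The means of Igfbp3 and Igfbp4 were -0.91 and -1.16 with a dye term, -0.69 and -0.92 on arrays 1 and 2 alone, and -0.09 and -0.14 with array 3 turned. Both genes were thus negative in each of these fits, and close to 0 when array 3 was turned.

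Igfbp2, a binding protein gene widely expressed in embryonic epithelium, stayed near 0 with -0.25, 0.03 and -0.35 on arrays 1, 2 and 3. Its mean was -0.19 ± 0.20, with an adjusted p of 0.538 by limma, and 0.04 with array 3 turned. Igfbp5 encodes a binding protein held in extracellular matrix. It had -0.05 on array 1, -0.01 on array 2 and 0.81 on array 3. Only array 3 departed from 0, and the mean of 0.25 ± 0.48 was -0.03 without it and -0.29 with it turned. The adjusted p of Igfbp5 was 0.606.

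Igfbp7 encodes a secreted protein related to the IGF binding proteins that binds IGFs weakly and is made by vessels and other cells. It had log2 ratios of 0.39, 0.53 and 0.13 on arrays 1, 2 and 3, all on the positive side. The mean of 0.35 ± 0.20 was the highest of the 8 genes and was 0.26, also the highest, with array 3 turned. Its unadjusted p was 0.0938 and its adjusted p 0.328 by limma.

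Ordered from lowest to highest mean, the genes ran Igfbp4, Igf1, Igfbp3, Igf1r, Igfbp2, Igf2r, Igfbp5 and Igfbp7. Neighbours in this order overlapped in their array values except Igfbp2 and Igf2r. With array 3 turned the order was Igf1r at -0.67, Igf1 at -0.37, Igfbp5 at -0.29, Igfbp4 at -0.14, Igfbp3 at -0.09, Igf2r at -0.04, Igfbp2 at 0.04 and Igfbp7 at 0.26, where Igf1, Igf2r and Igfbp7 hold the same place and the other 5 do not. These ratios are set against each other within the same arrays, and no level of one gene is compared with that of another. The place of Igf1r in both orders rests on the average of its 3 probes. That average includes the EXT probe, with -3.18 on array 2 and 3.00 on array 3, and the orders were not made without it. The median of the 8 means was -0.30, where the median of all genes was -0.0019.

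**Figure D3:**
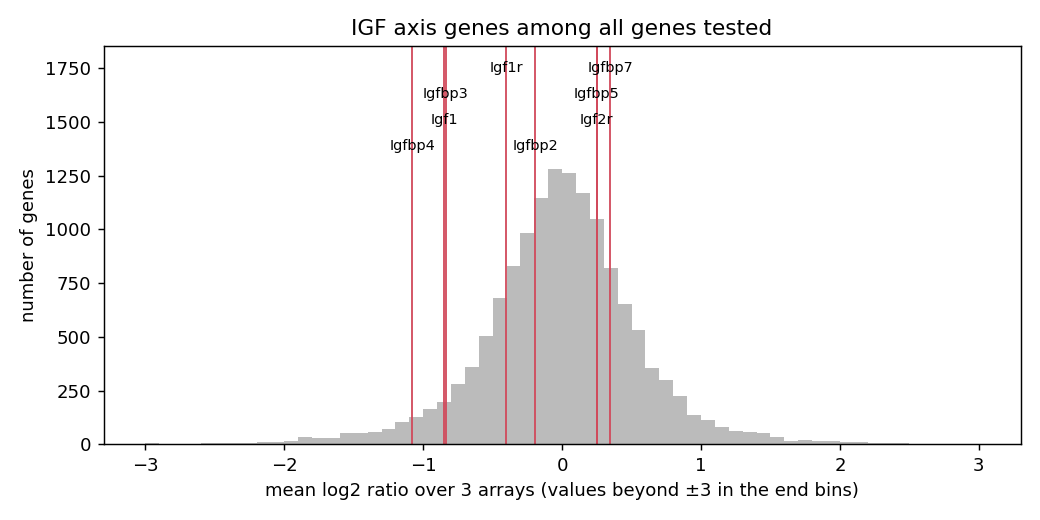
Histogram of the mean log2 ratio over 3 arrays (x axis) of 14047 genes (y axis, number of genes), with the 8 IGF axis genes as red lines. Igfbp4 at -1.08, Igf1 at -0.85 and Igfbp3 at -0.84 lie in the left shoulder, and the other 5 lie between -0.40 and 0.35.

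The sequence before the start site is shown for the genes with all probes, or all main series probes, on 1 side, so that a reader can see what the genes that lay together have upstream. RefSeq windows of GRCm38.p6 were found for all 8 members, and the 150 bases before the annotated start are printed 5′ to 3′. Capitals mark matches on either strand to the GC box GGGCGG, the TATA box TATAAA, the E-box CACGTG or the shared EGR and WT1 site GCGGGGGCG. The FOXO core GTAAACA was also searched. The genes on the negative side were these.
Igf1, chr10:87860961-87861110, plus strand: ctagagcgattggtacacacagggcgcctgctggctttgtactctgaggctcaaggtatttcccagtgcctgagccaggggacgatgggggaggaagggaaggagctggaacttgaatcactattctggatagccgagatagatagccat
Igf1r, chr7:67952107-67952256, plus strand: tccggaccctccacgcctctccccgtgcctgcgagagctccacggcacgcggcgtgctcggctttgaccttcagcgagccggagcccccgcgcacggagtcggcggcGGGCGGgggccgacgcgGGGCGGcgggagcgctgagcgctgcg
Igfbp3, chr11:7213924-7214073, minus strand: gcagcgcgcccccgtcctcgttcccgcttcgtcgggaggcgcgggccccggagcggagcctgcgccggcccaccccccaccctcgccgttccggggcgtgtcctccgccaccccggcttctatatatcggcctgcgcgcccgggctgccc
Igfbp4, chr11:99041094-99041243, plus strand: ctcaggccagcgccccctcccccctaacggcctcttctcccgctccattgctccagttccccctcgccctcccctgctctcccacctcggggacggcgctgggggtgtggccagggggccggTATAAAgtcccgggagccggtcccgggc
The genes on the positive side were these.
Igf2r, chr17:12769707-12769856, minus strand: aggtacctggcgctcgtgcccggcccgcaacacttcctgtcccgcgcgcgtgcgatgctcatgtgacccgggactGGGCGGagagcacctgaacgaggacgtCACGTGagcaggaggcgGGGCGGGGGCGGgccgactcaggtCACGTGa
Igfbp7, chr5:77408046-77408195, minus strand: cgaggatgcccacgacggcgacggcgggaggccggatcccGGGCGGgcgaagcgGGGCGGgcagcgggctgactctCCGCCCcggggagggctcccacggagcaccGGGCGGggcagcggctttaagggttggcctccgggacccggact

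In windows of 250 bases before to 50 after the start, the GC box was found in 35.7% of 32851 RefSeq windows, the TATA box in 13.6%, the E-box in 7.15%, the FOXO core in 3.65% and the EGR and WT1 site in 2.91%. Igf2r held 3 GC boxes, 2 E-boxes and 1 EGR and WT1 site, the last overlapping GC boxes. Igfbp7 held 4 GC boxes and Igf1r held 2. Igfbp4 held 1 TATA box, and the windows of Igf1 and Igfbp3 held none of the 5 motifs. None of these motifs was found in more than 1 of the 4 genes printed for the negative side. Igf1r counts among them by its main series probes alone, since its average over all probes had both signs. A match is a string of letters and not a measured site, and a missing match says only that the letters are not in this window.

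Some of these genes lie side by side in the mouse genome, and their ratios could be set next to each other. By RefSeq order of protein-coding genes, Igfbp2 and Igfbp5 are neighbours on chromosome 1, Igfbp1 and Igfbp3 on chromosome 11, and Ins2 and Igf2 on chromosome 7. Igfbp1, which encodes a liver binding protein, had log2 ratios of 1.17, 0.91 and -2.28 on arrays 1, 2 and 3. Igfbp3 was negative on those same arrays, so the neighbours were on opposite sides on arrays 1 and 2. Igfbp2 and Igfbp5 had the same sign on array 1 alone.

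The rest of the axis had no gene with the same sign on all arrays, against 45.4% of all genes. Of 9 listed genes 8 were measured on every array. Among these, 0 had an unadjusted p under 0.05 by limma, against 19.6% of all genes. Igf2, the main fetal IGF and an imprinted gene, had 0.30, -0.14 and -1.47, a mean of -0.44 ± 0.92, or 0.54 with array 3 turned. The insulin receptor gene Insr had 0.57, -0.31 and 0.87, a mean of 0.38 ± 0.61. Both ranged over 0, so neither can be put on a side. Igfbp1 had a mean of -0.07 ± 1.92 and Igfbp6, which encodes a binding protein that prefers IGF2, had 0.22 ± 0.59. The insulin gene Ins2 had -0.40 ± 0.80 and the insulin receptor-related gene Insrr had -0.78 ± 1.95. Igfals, whose product stabilises serum complexes of IGF and binding protein, had -0.36 ± 1.30, and Igfbpl1 had -0.19 ± 0.77. The SDs of these 8 genes ran from 0.59 to 1.95, and those of the 7 members other than Igf1r from 0.19 to 0.48. Igf1r, at 0.89, fell within the range of the former. The members were chosen with earlier results of these data known, so nothing is drawn from this contrast.

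The RNA binding proteins IGF2BP1 and IGF2BP3 bind Igf2 and other transcripts and are typical of embryonic tissue. Igf2bp1 had log2 ratios of -1.34, -1.48 and -1.47 on arrays 1, 2 and 3. The arrays lay close together, and the mean of -1.43 ± 0.08 was a 2.70-fold difference. By limma its unadjusted p was 0.000586 and its adjusted p was 0.149. Igf2bp3 had values from -1.73 on array 1 to -0.80 on array 3, a mean of -1.18 ± 0.49 with an adjusted p of 0.166. Of the 3 genes of this list 2 were measured. Both were negative on every array, the side of Igf1, against 22.5% of all genes. Both had an unadjusted p under 0.05 by limma, where 9.69% of all genes were negative at this threshold. With array 3 turned the means of Igf2bp1 and Igf2bp3 were -0.45 and -0.64.

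Genes that act on the binding proteins or resemble them are set here against the 19.6% of all genes at an unadjusted p under 0.05. Of 8 measured proteases and regulators of binding proteins, 0 had an unadjusted p under 0.05 by limma, and the list's median was -0.15. Htra3, a secreted serine protease gene, had -0.38 ± 0.15, Mmp14 had 0.36 ± 0.32, Mmp2 had -0.35 ± 0.35 and the stanniocalcin gene Stc2 had -0.18 ± 0.10. Among 7 measured genes for other proteins with an IGFBP domain, 1 (14.3%) had an unadjusted p under 0.05, and the list's median was -0.47. That gene was the matricellular protein gene Ccn2. Its log2 ratios were -1.24, -0.81 and -1.03, a mean of -1.03 ± 0.22 with an adjusted p of 0.156 by limma, or -0.34 with array 3 turned. Crim1 had -1.17 ± 1.59 and Ccn5 had -0.47 ± 0.86. Esm1 had -2.15 ± 3.90, with -6.63 on array 1 against -0.30 and 0.48 on arrays 2 and 3. The array 1 value of Esm1 is close to a ratio of 0.01, the lowest in the whole table.

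Downstream of the receptor, 19 genes for adapters and the PI3 kinase-AKT pathway were measured. At an unadjusted p under 0.05 by limma there were 4 negative and 0 positive genes, against 9.69% and 9.89% of all genes. On either side together that is 21.1% of the list, close to the 19.6% of all genes. Of the list 0 passed adjustment over all genes. The AKT kinase genes Akt1 and Akt2 had means of -0.63 ± 0.18 and -0.94 ± 0.29. The regulatory subunit genes of PI3 kinase, Pik3r1 and Pik3r2, had -0.96 ± 0.53 and -0.78 ± 0.17. All of these 4 genes were negative on every array, with adjusted p from 0.160 to 0.194, and with array 3 turned their means lay between -0.70 and -0.10. The list's median was -0.16.

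Of 12 measured genes of the mTOR complex and translation control, 1 was positive and 1 negative at an unadjusted p under 0.05 by limma. That is 16.7% of the list, near the 19.6% of all genes. They were Rheb, the GTPase that activates mTOR complex 1, at 0.50 ± 0.18, and Eif4ebp1, a repressor of cap-dependent translation, at -0.48 ± 0.21. With array 3 turned these were 0.30 and -0.11. Tsc1 had 0.31 ± 0.18 and Eif4ebp2 had -1.16 ± 1.39. The list of FOXO factors and GSK3, which also holds Bad, Bcl2l11 and Ccng2, had 7 measured genes. Of these, 5 were positive on all arrays, against 22.9% of all genes. At an unadjusted p under 0.05 by limma there was 1 gene (14.3%), against 19.6% of all genes. That gene was Bcl2l11, which encodes the death-promoting protein BIM, at 0.78 ± 0.12 with an adjusted p of 0.158, or 0.31 with array 3 turned. Foxo1 had 0.36 ± 0.29, Ccng2 had 0.40 ± 0.34 and Gsk3b had 0.20 ± 0.14, although the 3 probes of Gsk3b had means of 0.09, 0.79 and -0.27.

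In the growth hormone axis, the kinase gene Jak2 had 0.56 ± 0.14, or 0.15 with array 3 turned. It was the 1 gene of 5 (20%) with an unadjusted p under 0.05 by limma, against 19.6% of all genes. The growth hormone receptor gene Ghr had -0.39, -0.35 and -0.36, a mean of -0.37 ± 0.02 with an adjusted p of 0.261. Socs2 had -0.88 ± 0.75 and Ghrh had 0.15 ± 0.27. The list for sorting through mannose 6-phosphate receptors, the route that IGF2R serves, had 7 measured genes. Of them 1 (14.3%) had an unadjusted p under 0.05 by limma, against 19.6% of all genes. It was Gga2, a clathrin adaptor gene, with -1.41, -1.49 and -1.88, a mean of -1.59 ± 0.26 and an adjusted p of 0.149, or -0.34 with array 3 turned. The cation-dependent receptor gene M6pr had -0.15 ± 0.21, the cathepsin gene Ctsd had 0.59 ± 1.12 and Nagpa had -0.49 ± 0.61, and the means of Ctsd and Nagpa changed sign with array 3 turned, to -0.65 and 0.30. Joined, the 9 pathway lists held 75 measured genes, of which 3 were positive and 9 negative at an unadjusted p under 0.05, with a median of -0.15. That is 16% of them, against 19.6% of all genes.

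**Figure D4:**
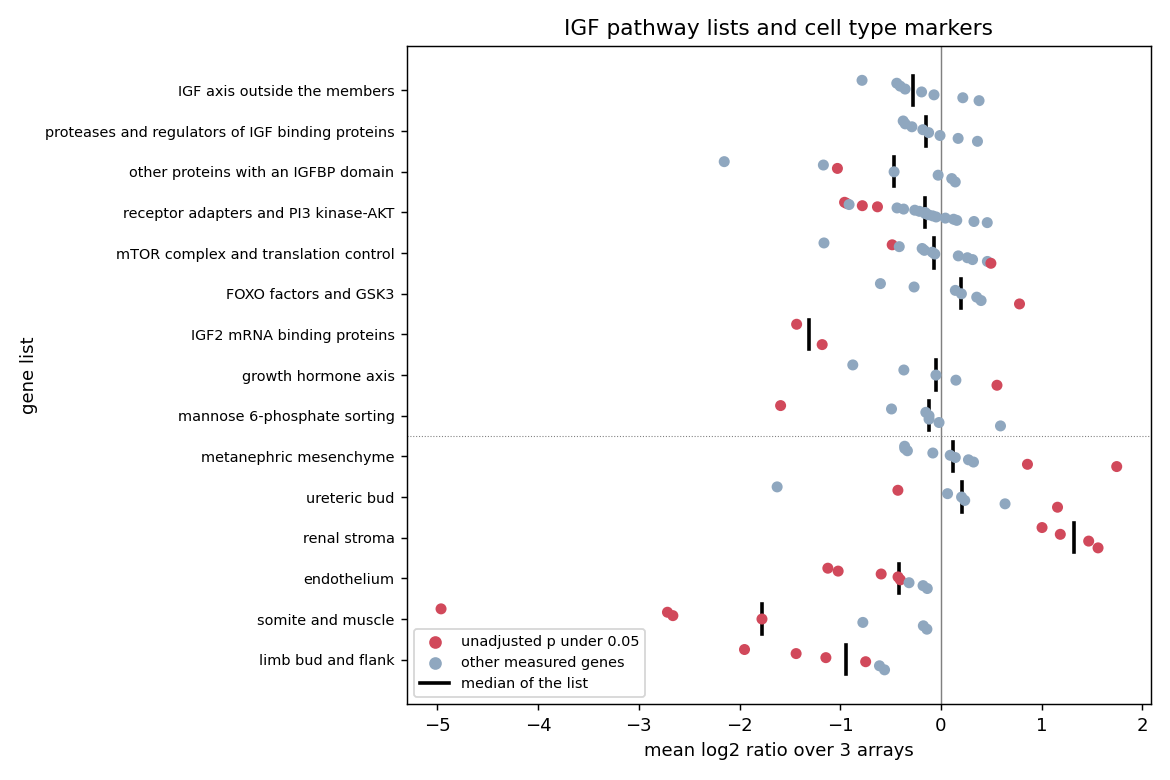
Mean log2 ratio over 3 arrays (x axis) of every measured gene of the 9 pathway lists (above the dotted line) and 6 cell type marker lists (below it), red where the unadjusted p was under 0.05, with each list's median as a black bar. The IGF2 mRNA binding proteins have a median of -1.31, and the renal stroma markers, at 1.33, and somite and muscle markers, at -1.78, have the medians farthest from 0.

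Markers of other tissues had ratios on the same sides as these genes. All 7 measured somite and muscle markers, all 6 limb bud and flank markers and all 8 endothelial markers had negative means, the side of Igf1, Igfbp3 and Igfbp4, with medians of -1.78, -0.95 and -0.41. All 4 renal stroma markers were positive on every array, the side of Igf2r and Igfbp7, with a median of 1.33. Of all genes, 7047 of 14047 had a negative mean and 22.9% were positive on every array. At an unadjusted p under 0.05 by limma there were 4 negative somite and muscle, 4 limb bud and flank and 5 endothelial markers, against 9.69% of all genes. All 4 stroma markers were positive at this threshold, against 9.89% of all genes. The marker lists were chosen with earlier results of these data known. Of 10 metanephric mesenchyme markers 6 had positive and 4 negative means, and of 7 ureteric bud markers 5 were positive and 2 negative. At an unadjusted p under 0.05 by limma the mesenchyme list had 2 positive and 0 negative genes. That is 20% of it, against 19.6% of all genes. The ureteric bud list had 1 positive and 1 negative gene at this threshold, 28.6% of it. By array, the somite and muscle median was -1.43, -1.67 and -1.56, the limb bud and flank median was -1.05, -1.12 and -1.08, the endothelial median was -0.56, -0.43 and -0.45, and the stroma median was 1.33, 1.52 and 1.12. As deposited, array 3 had the same sign as arrays 1 and 2 in the median of every marker list except metanephric mesenchyme. That list had medians of 0.15, 0.32 and -0.13 on arrays 1, 2 and 3. With array 3 turned the medians were -0.44 for somite and muscle, -0.36 for limb bud and flank, -0.15 for endothelium and 0.58 for stroma. Which sign of array 3 is right was not tested. The labelled tissues could not be checked for presence of their markers, since the values are ratios without intensities. The part of these other cell types in the IGF axis ratios was not tested.

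By distance over the 3 array ratios, the genes likest to Igfbp4, the member of smallest unadjusted p on the negative side, were Slfn1 at a Euclidean distance of 0.115, Tmem129 at 0.177 and Serpina1a at 0.199. Those likest to Igfbp7, its counterpart on the positive side, were Zranb2 at 0.029, 2610002M06Rik at 0.036 and Cmbl at 0.038. Only 3 values enter each distance.

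The values of the members depended on how array 3 was treated. With the 3 arrays as deposited, 3 members had an unadjusted p under 0.05 by limma, and the same 3 genes did so with a dye term and on arrays 1 and 2 alone. With array 3 turned 0 members did, when 779 of all genes did, against 2750 as deposited. Without array 1 only Igfbp3 did, and without array 2 the members were again Igf1, Igfbp3 and Igfbp4.

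**Figure D5:**
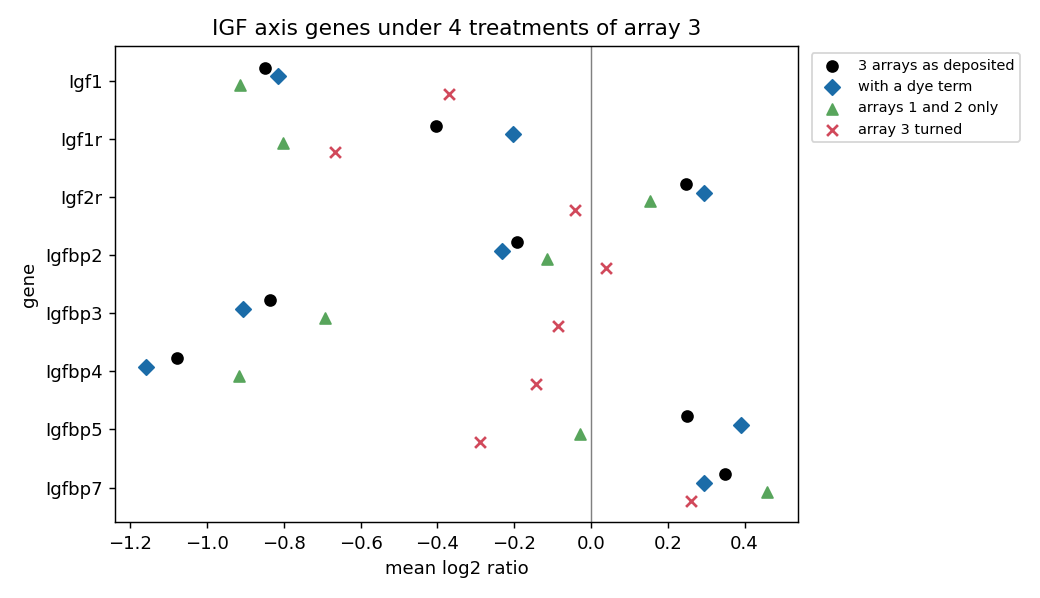
Mean log2 ratio (x axis) of each IGF axis gene with the 3 arrays as deposited, with a dye term, on arrays 1 and 2 only and with array 3 turned. Igf1 stays between -0.91 and -0.37, Igfbp7 between 0.26 and 0.46, and Igf2r, Igfbp2 and Igfbp5 cross 0 when array 3 is turned.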

How the data were processed

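The spots were read with Imagene 5.5, per the labels, and the authors' normalization in R used print-tip lowess followed by a step between arrays. The labels also name a lowess fit using 20% of the data at each point, with a control channel under 10 set to 10. What the authors deposited is the log2 ratio of the channels on each array, used as it stood. Ratios of at least 0.1 were whole in thousandths for 99.9% of values (tolerance 1e-05), and the lowest ratio was 0.01. The genome build and the numerator were not given in the sources used here. Spot intensities were not analysed here, which leaves signal over background unknown, and precision is limited by having 3 arrays.

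Of 22702 rows, 784 control or empty rows were left out. Gene names came from the platform annotation, where 16656 of 21918 gene probes had 1 symbol, 137 had several and 5125 had none. Of the first, 15970 matched RefSeq by Entrez identifier, and 0 symbols changed. Probes of a gene with values on all 3 arrays were averaged. With limma 3.58.1 (R 4.3.3), lmFit and eBayes gave a two-sided test of the mean ratio against 0, adjusted by Benjamini-Hochberg over 14047 genes (or 19660 probes). The fit was first tested on simulated data. Plots used Matplotlib 3.10.9.

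The members and lists were chosen with earlier results of these data known. Named genes are all members, every measured gene of the axis outside them, up to 4 genes per other list by smallest unadjusted p, and the 3 genes closest in pattern to 1 member per side. Alternatives covered centring, scaling, dye order, array 3's sign, missing values, variance moderation, extreme values, the joining of probes and each array left out. Counts at an unadjusted p and the removal of an Igf1r probe were added after seeing the data.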

Additional observations from a re-analysis of the deposited data

How the results depend on the processing

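At an adjusted p of 0.05 limma called 0 genes and 0 members under every alternative run, which says little about stability with 3 arrays; the members' adjusted p ranged from 0.151 to 0.987. The 13 alternatives gave 104 values for the 8 gene means, of which 59 differed from the reported mean at all, and 6 of these 59 changed sign. They were, with array 3 turned, Igf2r at -0.042, Igfbp2 at 0.040 and Igfbp5 at -0.29, Igfbp5 without array 3, and Igf1r without array 2 and, at 0.17, when the probe with the largest ratio stood for the gene. With 1 array left out Igfbp5 ran from -0.029 to 0.40 and Igf1r from -0.80 to 0.073. At an unadjusted p the count of all genes was 2750, against 779 with array 3 turned and 1156 to 2943 with 1 array left out. The members' count was 3, against 0 with array 3 turned, 5 of the 10 probes at probe level, and 1 to 3 with 1 array left out. It was 2 without variance moderation, which ended the place of Igf1, and 4 with the median of probes or without the EXT probe, each of which added Igf1r. Ratios set by the Igf1r EXT probe changed with the way probes were joined, and the median of the probes gave -0.64. The cause of these changes was not tested beyond the construction of each alternative. Each ratio already pairs the tissues of 1 array, so the test against 0 is a paired one, and no further block was fitted. The number of arrays limits the precision, and intensities were not analysed here.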

Other observations

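The noncoding gene Igf2os, an antisense transcript at the Igf2 locus, was chosen after its values were seen. It had log2 ratios of -0.08, -0.65 and -0.67 on arrays 1, 2 and 3, all negative, a mean of -0.46 ± 0.34 and an adjusted p of 0.303 by limma. The labels do not tell whether its probe separates the strands.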
